A study of Mus musculus with 8 samples.

Results

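The genes described here encode the catalytic subunits, regulatory subunits and small inhibitor proteins of protein kinase A, measured in cultured mouse lymph node stromal cells after knockdown of the translation factor Eif4g3. The set took every non-control array probe that carries the name Pkig, Pkia, Pkib, Prkaca, Prkacb, Prkar1a, Prkar1b, Prkar2a or Prkar2b, which gave 17 probes for 9 genes out of 41174 probes for 28599 gene names. Pkig entered the set because its signal in heavy polysome RNA of control cells was low, so that contrast is a description for it and carries no test. The cells were BALB/c lymph node stromal cells that had received 400 pmol of Eif4g3 siRNA or of control siRNA by Lipofectamine and were collected after 48 h, from 7 plates per siRNA. For the polysome samples, lysate of pooled cells was spread over a sucrose gradient, and the fractions with transcripts carrying many ribosomes were combined as heavy polysome RNA. Total RNA was hybridised to 4 arrays and heavy polysome RNA to 4 arrays, each of 2 colours, with RNA of Eif4g3 siRNA cells in Cy5 and RNA of control siRNA cells in Cy3. The dyes were never swapped, so within a fraction a change cannot be told apart from a dye bias of the probe, and the 4 arrays of a fraction may not be separate cultures, in which case p-values measure technical spread.

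Protein kinase A is held inactive as a tetramer in which regulatory subunits cover the catalytic subunits. The second messenger cAMP binds the regulatory subunits and frees the catalytic subunits, which phosphorylate proteins such as the transcription factor CREB. Protein kinase inhibitor peptides bind free catalytic subunits and carry them out of the nucleus, and A-kinase anchoring proteins tether the regulatory subunits to membranes and the cytoskeleton.

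Several facts of the arrays bear on every value below. The siRNA target itself fell 4.20-fold in total RNA (log2 ratio -2.07 ± 0.29, SD, n = 4, limma adjusted p = 0.00208) and 5.49-fold in heavy polysome RNA (-2.46 ± 0.50, adjusted p = 6.25e-04). Probes well above background made up 37.7% to 57.6% of an array in Cy3 and 43.2% to 53.6% in Cy5. Log2 ratios of heavy polysome arrays 1 and 3 and of total RNA array 4 correlated least with the other arrays of their fraction, with mean r across genes of 0.259, 0.296 and 0.323, whereas heavy polysome arrays 2 and 4 correlated at 0.88. The 8 arrays lay on 5 slides, none of which held both fractions, and total RNA array 2 was scanned on another day with an earlier software version. Of 12 markers of fibroblastic stroma, 10 to 11 were above background in each group of samples, and Cxcl13 was in none. Macrophage markers were also present at 5 of 8 in each group (Cd68, Csf1r, Trem2, Lyz2 and Cd14), while Adgre1, Itgam and Fcgr1 were in none. Endothelial markers reached 0 to 1 of 8, T cell markers 0 to 2 of 5, B cell markers 0 to 1 of 4 and smooth muscle markers 3 to 4 of 4.

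Of the inhibitor genes 1 was bright on every array and 2 were at background. Pkig, which encodes the gamma isoform of the inhibitor, was read by 1 probe (A_51_P370874, mm8 chr2:163417489-163417548, plus strand) that was well above background in all 16 channels. The 2 probes of Pkia and the 3 probes of Pkib, the alpha and beta isoforms, did not pass the filter on dim probes. Pkia probe A_52_P314129 was well above background in both colours of total RNA array 1 and nowhere else. The other Pkia probe and all 3 Pkib probes were not well above background in any of the 16 channels. For these 2 genes the arrays give only an upper bound, and no change was tested. The same filter passed 7 of the 9 genes, among 14861 genes in all.

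Pkig RNA was low in heavy polysomes relative to total RNA in both cell samples. In control siRNA cells its normalised log2 signal was 13.31, 13.69, 13.47 and 13.42 on the 4 total RNA arrays and 10.57, 10.87, 11.18 and 10.91 on the 4 heavy polysome arrays. The groups did not overlap, and the lowest total RNA value lay well above the highest heavy polysome value. The mean difference of -2.59 on the log2 scale is 6.02-fold lower in heavy polysomes and was the 6th lowest of the 14861 genes, which is the property that chose the gene. In control cells 8.38% of genes had all 4 heavy polysome values under all 4 total RNA values, and 1.47% had them all over. In Eif4g3 siRNA cells the share with all values under was 5.29%.

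The Eif4g3 siRNA samples were other RNA samples than those that chose Pkig, although they shared the arrays and spots with them. Normalisation between arrays also used the mean of both colours of a spot, so the control signal enters the Eif4g3 siRNA values. The test below is therefore not independent of the choice of Pkig. In the Eif4g3 siRNA samples the log2 signal of Pkig was 13.23, 13.56, 13.20 and 12.93 in total RNA, against 10.89, 10.76, 10.40 and 10.86 in heavy polysome RNA. Again the fractions were wide apart, with array 3 lowest in heavy polysome RNA and array 4 lowest in total RNA. Heavy polysome signal was 5.65-fold lower than total RNA signal, a log2 difference of -2.50 (95% interval -2.94 to -2.05, limma adjusted p = 0.00418). Pkig was the 11th lowest of 14861 genes in this contrast, in which 0.182% of genes (27) passed the threshold of adjusted p under 0.05, all of them lower in heavy polysomes. No other member passed. Equal RNA mass was labelled from each sample, so these differences are relative to the other transcripts of the fraction. All values come from RNA of whole cultures. For a change between the siRNAs, fewer cells that contain a transcript and less of it per cell cannot be told apart.

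Without heavy polysome arrays 1 and 3 and total RNA array 4, the Pkig difference in Eif4g3 siRNA cells was -2.52 with an adjusted p of 0.275. In that fit of 5 arrays 0 genes passed with limma. Since no slide held both fractions, slide and fraction cannot be fully told apart. With slide as a random block the difference was -2.48 (limma adjusted p = 0.00172). In that fit 72 genes passed in place of 27, and its lower adjusted p is no check on the slides, because each slide lies in 1 fraction.

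**Figure D1:**
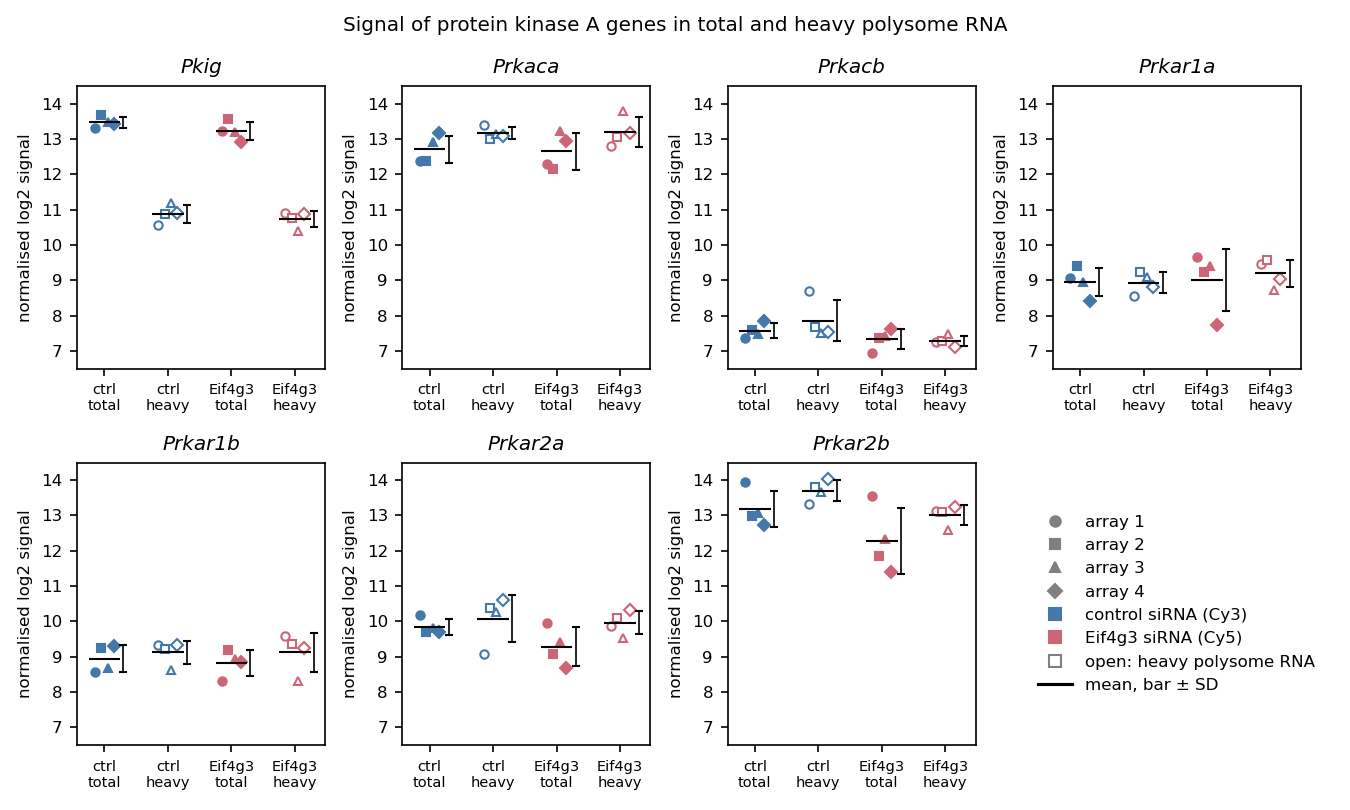
Normalised log2 signal (vertical axis) of the 7 measured protein kinase A genes on each of the 8 arrays, by fraction and siRNA (horizontal axis), with the mean as a line and the SD as a bar. Pkig lies near 13 in total RNA and near 11 in heavy polysome RNA in both cell samples, while the fractions of the other 6 genes overlap within each cell sample; levels of different genes come from different probes and are not comparable.

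The ratio of Pkig between the siRNAs was small in both fractions. The log2 ratio of Eif4g3 siRNA over control siRNA was -0.08, -0.13, -0.28 and -0.50 on the total RNA arrays, with a mean of -0.24 ± 0.19 (SD, n = 4). It was 0.33, -0.11, -0.78 and -0.05 on the heavy polysome arrays, with a mean of -0.15 ± 0.46. All 4 total RNA arrays were slightly below 0, whereas the heavy polysome arrays lay on both sides of it. The difference between the fractions was 0.09, and it was not tested because the control signal that chose Pkig is part of it.

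The 5 genes whose pattern over the 16 channel values was most like that of Pkig were Marchf2, Fam149a, Gas5, 0610007N19Rik and Wbp1, with Pearson r of 0.974, 0.969, 0.966, 0.963 and 0.961. These correlations describe 8 arrays with 2 colours each, and the step between fractions carries most of the likeness. Gas5, a host transcript of small nucleolar RNAs, was 6.51-fold lower in heavy polysomes than in total RNA in control cells and 7.18-fold lower in Eif4g3 siRNA cells, but 2.99-fold lower there with the mean of all its probes. Marchf2, a membrane-bound ubiquitin ligase, was 3.96-fold and 3.08-fold lower in the same order.

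**Figure D2:**
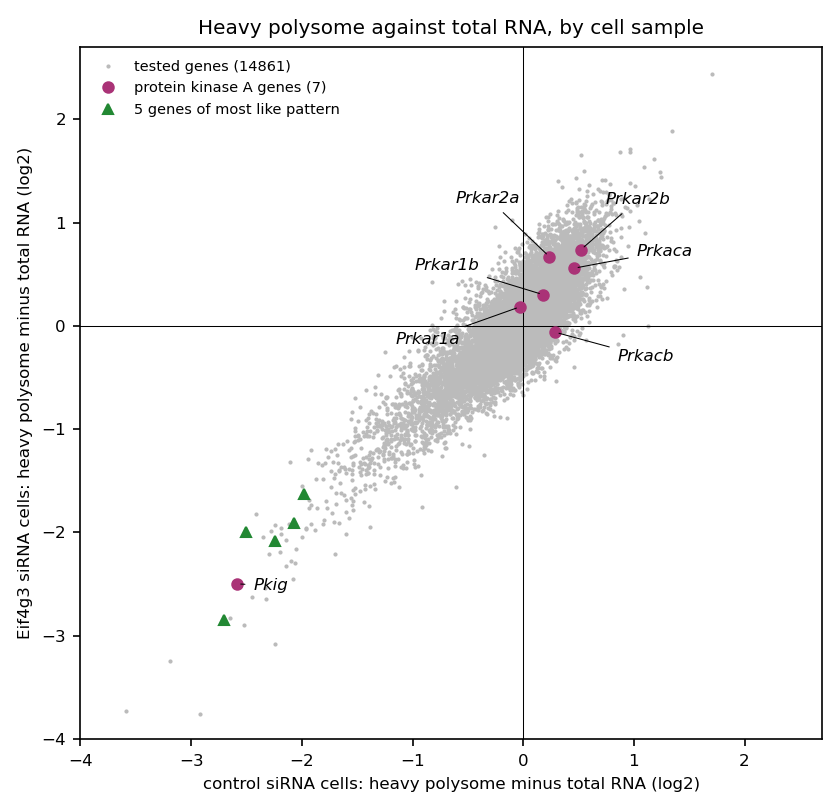
Mean log2 difference of heavy polysome over total RNA in control siRNA cells (horizontal axis) and in Eif4g3 siRNA cells (vertical axis) for each of 14861 tested genes, with the 7 measured protein kinase A genes and the 5 genes most like Pkig marked. Pkig sits at -2.59 and -2.50, in the sparse lower left tail, while the other 6 members lie between -0.03 and 0.52 in control cells and between -0.06 and 0.74 in Eif4g3 siRNA cells; both axes share arrays.

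The catalytic subunit genes did not pass the threshold in any comparison of the fit as described. Prkaca, which encodes the alpha catalytic subunit, had log2 control signals of 12.36, 12.38, 12.91 and 13.16 in total RNA, against 13.40, 13.01, 13.14 and 13.10 in heavy polysome RNA. The ranges overlapped only through total RNA array 4, which was as high as some heavy polysome arrays, and the mean difference was 0.46. In Eif4g3 siRNA cells the difference was 0.56 (95% interval -0.11 to 1.23, limma adjusted p = 0.480). The siRNA log2 ratio of Prkaca was -0.06 ± 0.25 in total RNA (interval -0.45 to 0.33, adjusted p = 0.888) and 0.04 ± 0.52 in heavy polysome RNA (interval -0.35 to 0.43, adjusted p = 0.914). On heavy polysome array 1 the ratio was -0.61 and on array 3 it was 0.65, so these 2 arrays set the spread.

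Prkacb, which encodes the beta catalytic subunit, was read by 2 probes. The brighter one, A_51_P380215 (mm8 chr3:146675329-146675388, minus strand), gave siRNA log2 ratios of -0.43, -0.20, -0.06 and -0.23 in total RNA. Its ratios were -1.46, -0.40, -0.02 and -0.43 in heavy polysome RNA, all below 0 but with array 1 far from the rest. The mean was -0.23 ± 0.15 in total RNA (interval -0.66 to 0.20, limma adjusted p = 0.531) and -0.58 ± 0.62 in heavy polysome RNA (interval -1.01 to -0.15, adjusted p = 0.0954). The second probe, A_52_P432680 (mm8 chr3:146667756-146667815, minus strand), had means of -0.41 ± 0.09 and -0.32 ± 0.27, and its ratio on heavy polysome array 1 was 0.04. The probes therefore disagreed on that array alone by more than 1 log2 unit. Without heavy polysome array 1 the brighter probe's mean on polysomes was -0.28 (limma adjusted p = 0.168). With the mean of both probes Prkacb passed the threshold in heavy polysome RNA (-0.45, limma adjusted p = 0.0143). In that fit 1486 genes passed in heavy polysome RNA, in place of 1312.

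The type I regulatory subunit genes did not pass the threshold in any comparison. Prkar1a, which encodes the widely expressed RI alpha subunit, had siRNA log2 ratios of 0.61, -0.15, 0.46 and -0.68 in total RNA, against 0.90, 0.34, -0.38 and 0.23 in heavy polysome RNA. The arrays scattered over both signs in each fraction. Its means were 0.06 ± 0.60 (interval -0.46 to 0.58, limma adjusted p = 0.918) and 0.27 ± 0.52 (interval -0.25 to 0.79, adjusted p = 0.514), and the sign in total RNA turned to -0.066 when arrays were centred on their median in place of loess. Prkar1b, which encodes RI beta, a form best known from neurons, had means of -0.12 ± 0.30 (interval -0.42 to 0.18, adjusted p = 0.657) and 0.00 ± 0.26 (interval -0.30 to 0.30, adjusted p = 0.999). Its second probe, A_51_P185499, spans 43363 bases of mm8 chromosome 5, which is longer than an oligonucleotide probe, and gave -0.16 ± 0.22 and 0.04 ± 0.11.

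The type II regulatory subunit genes had the lowest mean ratios of the members in total RNA. Prkar2b, which encodes RII beta, was read by probe A_51_P221062 (mm8 chr12:32543773-32543832, minus strand). In total RNA its log2 signal was 13.94, 13.00, 13.06 and 12.74 in control cells and 13.54, 11.86, 12.33 and 11.39 in Eif4g3 siRNA cells. The log2 ratios were -0.40, -1.14, -0.74 and -1.35, lower on every array, with array 1 the least changed. In heavy polysome RNA the signal was 13.33, 13.80, 13.66 and 14.03 in control cells and 13.13, 13.10, 12.59 and 13.24 in Eif4g3 siRNA cells. The ratios there were -0.20, -0.69, -1.07 and -0.79, again lower on every array and least on array 1. Every Eif4g3 siRNA value in heavy polysome RNA lay under every control value, whereas in total RNA the groups overlapped through the high signals of array 1. All 4 Eif4g3 siRNA signals lay under all 4 control signals for 3.88% of all genes on polysomes and for 1.41% in total RNA.

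Prkar2b fell 1.87-fold in total RNA (-0.90 ± 0.42, n = 4, interval -1.29 to -0.52, limma adjusted p = 0.0243) and 1.61-fold in heavy polysome RNA (-0.69 ± 0.36, interval -1.07 to -0.31, adjusted p = 0.0373). It was the only 1 of the 6 tested members other than Pkig to pass the threshold in either fraction. Of all 14861 genes 4.31% passed in total RNA, 2.64% lower and 1.67% higher. In heavy polysome RNA 8.83% passed, 4% lower and 4.82% higher. The change in heavy polysome RNA minus that in total RNA was 0.22 (interval -0.33 to 0.76, adjusted p = 0.906). Heavy polysome signal over total RNA signal was 0.52 in control cells and 0.74 in Eif4g3 siRNA cells (interval -0.18 to 1.66, adjusted p = 0.499).

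The Prkar2b calls were sensitive to leaving out single arrays, although its ratio was lower on every array. The total RNA call disappeared when arrays 2, 3 or 4 of that fraction, or array 4 of the polysome fraction, were dropped one at a time (adjusted p = 0.0505 to 0.101). The polysome call disappeared on dropping array 2 or 3 of total RNA, or array 2, 3 or 4 of the polysome fraction (adjusted p = 0.0600 to 0.139). Over all genes, 52 to 253 genes passed in total RNA in those fits, in place of 640. On polysomes 352 to 1083 genes passed, in place of 1312. In the fit of all arrays the fibroblastic marker Col1a2, a collagen chain, also fell. Its ratio was -0.46 in total RNA (limma adjusted p = 0.0492) and -0.42 on polysomes (adjusted p = 0.0461). Fibroblastic markers that passed as lower numbered 1 of 11 tested in total RNA and 4 of 11 on polysomes. Of all genes 2.64% passed as lower in total RNA and 4% on polysomes. Fibroblastic ratios above 0 numbered 3 of 11 in total RNA and 4 of 11 on polysomes. Of 5 tested macrophage markers, total RNA of Csf1r fell (-0.57, limma adjusted p = 0.0448), and on polysomes Trem2 did (-1.39, adjusted p = 0.0168). Macrophage ratios above 0 numbered 0 of 5 in total RNA and 1 of 5 on polysomes. Of 4 tested smooth muscle markers 1 rose, Cnn1, a calponin of contractile cells, by 0.43 in total RNA (limma adjusted p = 0.0384) and by 0.39 on polysomes (adjusted p = 0.0349). Another of the 4, Des, was lower without passing, at -0.33 (limma adjusted p = 0.159) and -0.37 (adjusted p = 0.100). Ratios above 0 numbered 3 of the 4 in total RNA and 2 of the 4 on polysomes. The part of the cell mixture in the Prkar2b result was not tested.

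**Figure D3:**
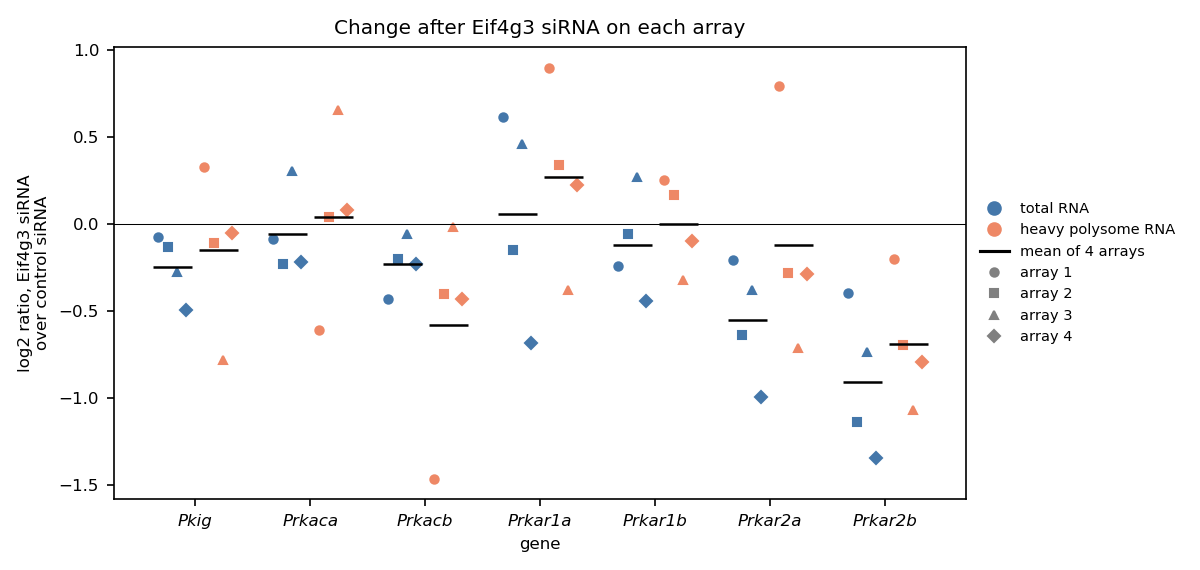
Log2 ratio of Eif4g3 siRNA over control siRNA (vertical axis) on each array for the 7 measured protein kinase A genes (horizontal axis), for both RNA fractions, with the mean of 4 arrays as a line. Prkar2b is below 0 on all 8 arrays, and heavy polysome arrays 1 and 3 give the highest and lowest heavy polysome values of all 7 genes.

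Prkar2a, which encodes RII alpha, was read by 4 probes that did not agree. The brightest, A_51_P409893 (mm8 chr9:108605746-108605805, plus strand), gave siRNA log2 ratios of -0.20, -0.64, -0.38 and -0.996 in total RNA, against 0.79, -0.28, -0.71 and -0.29 in heavy polysome RNA. Total RNA was lower on every array, and heavy polysome array 1 went the other way. The means were -0.55 ± 0.34 (interval -1.04 to -0.07, limma adjusted p = 0.169) and -0.12 ± 0.64 (interval -0.61 to 0.36, adjusted p = 0.769). Probe A_52_P367583 (mm8 chr9:108604868-108604927) gave similar means of -0.55 ± 0.32 and -0.18 ± 0.54. Probe A_51_P217295, which spans 1297 bases of the genome, gave -0.21 ± 0.15 and -0.18 ± 0.11. Probe A_52_P584753 (mm8 chr9:108550503-108550562), which lies upstream of the others, was dim and gave 0.01 ± 0.12 and 0.23 ± 0.05. Prkar2a passed the threshold in total RNA without heavy polysome array 1 (limma adjusted p = 0.0404). It also passed without the 3 arrays of lowest correlation (-0.41, adjusted p = 0.0221). In those fits 1349 and 3219 genes passed in total RNA, in place of 640.

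In Eif4g3 siRNA cells heavy polysome signal of Prkar2a exceeded total RNA signal by 0.67 on the log2 scale (interval 0.02 to 1.32, limma adjusted p = 0.391), against 0.24 in control cells. With probe A_52_P367583 the log2 signal was 7.23, 6.94, 7.25 and 7.03 in total RNA, against 7.80, 7.62, 8.22 and 7.91 in heavy polysome RNA. These values did not overlap, and their mean difference was 0.78, but the probe does not represent the gene in the fit and 2.77% of genes had all 4 heavy polysome values over all 4 total RNA values in these cells.

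**Figure D4:**
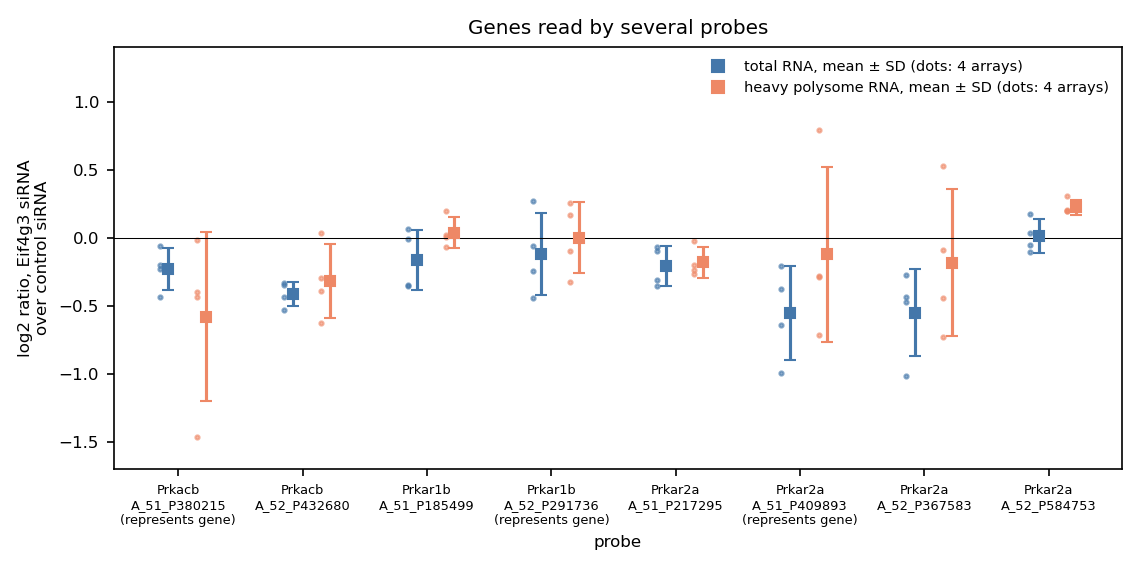
Log2 ratio of Eif4g3 siRNA over control siRNA (vertical axis) for each probe that passed the filter of the 3 genes read by several probes (horizontal axis), as mean ± SD over 4 arrays with the single arrays as dots. The 4 Prkar2a probes range from -0.55 to 0.01 in total RNA, and the 2 Prkacb probes part on heavy polysome array 1, at -1.46 and 0.04.

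Most member ratios were below 0 in total RNA, as were those of most genes. Of the 7 measured genes, 6 had a mean ratio below 0, with a median of -0.23 against -0.04 over all genes. The tested gene Ramp1, with a ratio near 0 (-0.0007), had 57.9% of all genes below it. On all 4 arrays 4 members (Pkig, Prkacb, Prkar2a and Prkar2b) were below 0, as were 21.6% of all genes. In heavy polysome RNA 4 of 7 were below 0 with a median of -0.12 against 0.02. There the tested gene Vipr1, at 0.001, had 46.9% of all genes below it. On all 4 polysome arrays 2 members (Prkacb and Prkar2b) were below 0, as were 14.6% of all genes. These counts include Pkig, whose ratio shares the control signal that chose it, and they were not tested. For the change in heavy polysome RNA minus that in total RNA, 0 members and 0% of all genes passed with limma, while 784 genes (5.28%) had an unadjusted p under 0.05. The 6 tested differences ran from -0.35 for Prkacb (interval -0.96 to 0.26) to 0.43 for Prkar2a (interval -0.25 to 1.12). Without heavy polysome array 1 these were -0.053 and 0.13. With 4 arrays per fraction, a difference of moderate size between fractions cannot be told from 0.

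CREB, a target of the kinase, binds the cAMP response element TGACGTCA, and many of its target genes carry only the shorter form TGACG. RefSeq start-site windows of GRCm38.p6, each of 250 bases before to 50 after a start, held the full element in 1.79% of 32851 windows. The shorter form, on either strand and including every full element, was in 20.8%. Of the 9 members 8 were matched, with 24 windows. The full element occurred at 1 site, shared by 2 overlapping windows of Prkar1a, and the shorter form in 8 windows of 6 members (Pkig, Prkaca, Prkacb, Prkar1a, Prkar1b and Prkar2a). Neither was in the 2 windows of Prkar2b or the 2 windows of Pkib. The Prkar1a site and examples of the shorter form are printed here for comparison, 5′ to 3′ on the strand of the gene with the matched letters in capitals.

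Prkar1a, chr11:109650889-109650918, plus strand: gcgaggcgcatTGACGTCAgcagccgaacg

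Pkig, chr2:163693814-163693843, plus strand: gtttgacaaatgTGACGggcctgggatgca

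Prkaca, chr8:83972846-83972875, plus strand: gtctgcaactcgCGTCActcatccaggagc

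Prkacb, chr3:146813031-146813060, minus strand: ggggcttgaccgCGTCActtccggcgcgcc

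The Prkar1a element begins 49 bases before one of the RefSeq starts, and the 3 others lie 211, 120 and 102 bases before a start of their genes. These matches are letters in a window, and the arrays hold no measurement of binding. The siRNA ratios of these 4 genes, given above, did not pass the threshold or, for Pkig, were not tested.

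Genes around the kinase in the cAMP pathway were read from 7 lists of 90 genes, of which 69 were tested. In total RNA 1 rose and 5 fell, where 1.67% of all genes rose and 2.64% fell, and the median log2 ratio was -0.17 against -0.04 over all genes. On polysomes 1 rose and 5 fell, where 4.82% of all genes rose and 4% fell, with a median of -0.10 against 0.02. Counts this small are given as a description of the lists. With limma 0 of 69 passed for the difference between the fractions or for heavy polysome over total RNA in Eif4g3 siRNA cells, where 0% and 0.182% of all genes did. At an unadjusted p under 0.05 the counts were 7 and 6 of 69, against 5.28% and 12.4% of all genes.

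Upstream of the kinase, 3 of 14 tested receptor and G protein genes fell in total RNA and 1 of 14 fell on polysomes, beside the shares of all genes just given. Gnai2, an inhibitory G protein subunit, was at -0.72 ± 0.32 (limma adjusted p = 0.0295), and its relative Gnai1 at -0.39 ± 0.09 (adjusted p = 0.0421). Ramp3, a partner protein of the calcitonin receptor family, fell in total RNA (-0.67 ± 0.19, adjusted p = 0.0129) and in heavy polysome RNA (-0.67 ± 0.20, adjusted p = 0.00675). Adcy7, an adenylyl cyclase that makes cAMP, was the 1 of 6 tested cyclases that fell, at -0.74 ± 0.25 (adjusted p = 0.0190) and -0.50 ± 0.30 (adjusted p = 0.0427). Of the 13 tested phosphodiesterases, which break cAMP down, 0 passed in either fraction, against 4.31% and 8.83% of all genes. The Gnai1 call was lost in 10 of 15 alternative settings and its ratio shrank to -0.064 with the mean of all its probes, and the Gnai2 call was lost in 8. Dropping any 1 total RNA array, or polysome array 2 or 4, ended both. The Adcy7 call ended without array 1, 2 or 3 of total RNA in that fraction, and on polysomes in 9 of 16 settings, among them dropping total RNA array 2 or 3 or polysome array 2, 3 or 4. Ramp3 lost its total RNA call without array 3 of that fraction, and both calls with median centring in place of loess (limma adjusted p = 0.0598 in total RNA, 0.0719 on polysomes).

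Rapgef3, which encodes the cAMP-activated exchange factor Epac1, fell in both fractions, at -0.73 ± 0.29 in total RNA (limma adjusted p = 0.0128) and -0.89 ± 0.13 in heavy polysome RNA (adjusted p = 0.00377). Among 15 tested A-kinase anchors, Akap12 fell in heavy polysome RNA (-0.75 ± 0.29, adjusted p = 0.0233). Among 10 tested CREB factors and coactivators, Atf1, a CREB relative, rose in total RNA (0.76 ± 0.30, adjusted p = 0.0276) and in heavy polysome RNA (1.27 ± 0.36, 2.41-fold, adjusted p = 0.00320). Sik1, a kinase that holds back CREB coactivators, fell on heavy polysomes (-0.60 ± 0.17, adjusted p = 0.00729) and was at -0.19 ± 0.14 in total RNA. The polysome calls of Rapgef3 and Atf1 held in all 16 alternative settings and that of Sik1 in 15. The total RNA call of Rapgef3 ended without array 3 of that fraction, and the Akap12 call ended without polysome array 1, 2 or 4, with median centring in place of loess and with polysome arrays 2 and 4 averaged. The total RNA call of Atf1 was lost in 6 of 15 settings. These were dropping array 1, 3 or 4 of that fraction or polysome array 4, the mean of all its probes (0.38, limma adjusted p = 0.0670) and median centring (0.54, adjusted p = 0.111). Sik1 lost its call with median centring (adjusted p = 0.112), and with the deposited processed signals it was 2.26-fold lower (-1.18) in place of 1.51-fold. Of 9 tested cAMP-responsive target genes 0 passed with limma in either fraction, against 4.31% and 8.83% of all genes. At an unadjusted p under 0.05 the counts were 1 and 2 of 9, against 22% and 25.4% of all genes.

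**Figure D5:**
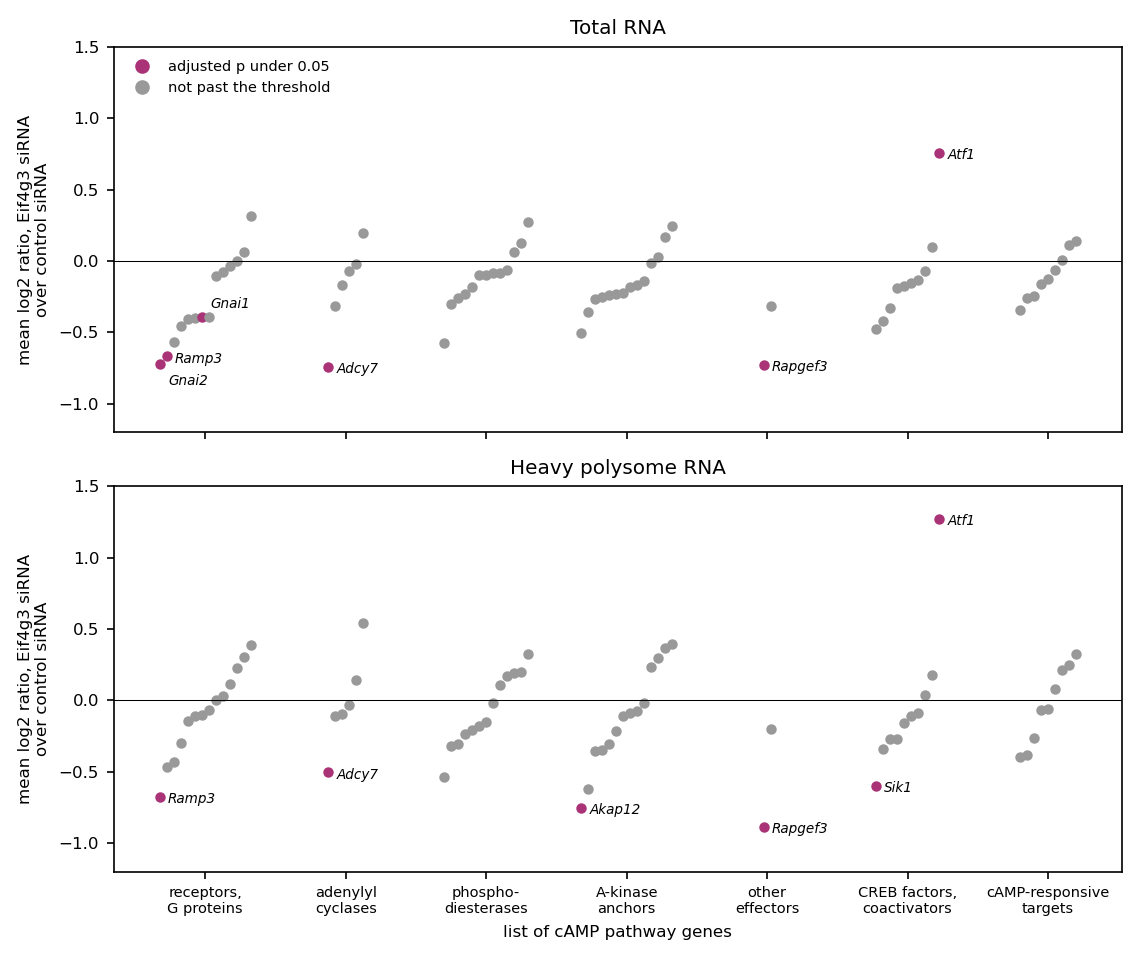
Mean log2 ratio of Eif4g3 siRNA over control siRNA (vertical axis) of 69 tested cAMP pathway genes, grouped by list (horizontal axis), with 1 panel per RNA fraction. Each point is 1 gene, and the named points had a limma adjusted p under 0.05. In each fraction Atf1 is the 1 that rose and 5 fell. No phosphodiesterase (13 tested) or cAMP-responsive target (9 tested) is among them, where 4.31% and 8.83% of all genes passed.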

How the data were processed

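Signals of 8 Agilent 2-colour whole mouse genome arrays were used. Per the file headers, the deposited scanner tables hold spot and background intensity from Feature Extraction 10.7.3.1, or 10.5.1.1 for total RNA array 2, with probe positions on mm8; Agilent Feature Extraction is also what the submitters' processing notes list. The deposited value table of the series gives log2 ratios (Cy5 over Cy3), within 0.01 of the processed signals for 99.78% to 100% of probes, with column medians of -0.21 to 0.31, and it was not used further. No spot was saturated, and 131 to 241 flagged spots per array were left out.

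Mean signals were background-corrected with normexp (offset 50), loess-normalised within arrays (span 0.3) and, for single-channel values, Aquantile-normalised between arrays (R 4.3.3, limma 3.58.1). The brightest probe represented a gene, which was tested if that probe passed the well-above-background mark of either colour on at least 3 of 4 arrays of a fraction. Tests were limma fits over 14861 genes, two-sided, Benjamini-Hochberg adjusted, with a threshold of 0.05. Intervals are unadjusted 95% intervals and cover the spread between arrays only, and the number of arrays limits the precision. Members and lists were chosen with earlier results of these data known. Named were all members, the siRNA target, pathway genes past the threshold and the 5 genes most like Pkig. Scripts were tested on simulated data. Promoter letters came from RefSeq tables of GRCm38.p6. The exon a probe reads was not looked up, because no mm8 annotation was used here.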

Additional observations from a re-analysis of the deposited data

Results flagged for a closer look

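Of 42 groups of 4 values of the members that were examined for 1 array far from the rest, 1 stood out, and chance alone gives about 1 in 20. The normalised log2 control signal of Prkacb was 8.71 on heavy polysome array 1 and 7.50 to 7.67 on the other 3 heavy polysome arrays, a gap of 0.858 of the whole range. The second Prkacb probe read 7.45 in the same channel of that array and 7.71, 7.97 and 7.73 on the others. Heavy polysome array 1 also had the lowest share of probes well above background in Cy3, 37.7%, and the lowest correlation with its fraction.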

How the results depend on the processing

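Pkig in Eif4g3 siRNA cells stayed lower in heavy polysomes and past the threshold in 15 of 16 alternatives (log2 -2.69 to -2.39), and without any 1 array its value ran from -2.60 to -2.39 (adjusted p = 0.00546 to 0.0432); the exception, added after seeing the data, left out the 3 arrays of lowest correlation (-2.52, adjusted p = 0.275, 0 members). All these fits use the arrays and spots that chose Pkig, so the count is not independent of that choice. In control cells Pkig was -2.81 with the deposited processed signals. Replicate numbers did not pair the arrays (same-number r between fractions -0.30 to 0.17 for ratios and 0.00 to 0.24 for Cy5). The replicate block left Pkig at -2.50 (adjusted p = 0.0286), with 10 genes past the threshold in place of 27, and changed no other member's call. Without any 1 array the total RNA ratio of Prkar2b was -1.07 to -0.76, with 0 to 2 members past the threshold, and its heavy polysome ratio was -0.85 to -0.56, with 0 to 1 members past it. In heavy polysome RNA Prkar2b lost its call, leaving 0 members, with no filter on dim probes (-0.69, adjusted p = 0.0679), with median centring (-0.67, 0.218), with heavy polysome arrays alone (-0.69, 0.0725) and with arrays 2 and 4 averaged (-0.67, 0.125). There 2 members passed with the mean of all probes and with slide as a random block (Prkacb limma adjusted p = 0.0405). The same 2 passed without the 3 arrays of lowest correlation (Prkacb -0.42, 0.0389), where 2 members also passed in total RNA. Over all genes these fits passed 1486, 2639 and 2425 in heavy polysome RNA, in place of 1312. Signs that turned were all of values under the threshold. With processed signals these were Prkaca (0.023) and Prkar1b (0.026) in total RNA, Prkar1b in heavy polysome RNA (-0.037) and in the difference between fractions (-0.064), and Prkacb in heavy polysome over total RNA of Eif4g3 siRNA cells (0.19, and 0.11 with the mean of probes). Median centring turned Prkar1a in total RNA (-0.066) and Prkar1b in heavy polysome RNA (-0.015, and -0.011 with arrays 2 and 4 averaged). Leaving out the 3 arrays turned Prkar1a in the difference (-0.026) and in heavy over total RNA (-0.13). Leaving out 1 array gave ranges across 0 for Prkar1a in total RNA (-0.13 to 0.31), Prkar1b (-0.083 to 0.11), Prkaca (-0.16 to 0.26) and Prkar2a (-0.43 to 0.074) in heavy polysome RNA, Prkar1a (-0.037 to 0.43) and Prkaca (-0.10 to 0.32) in the difference, and Prkacb (-0.20 to 0.034) and Prkar1a (-0.24 to 0.41) in heavy over total RNA. Over all genes the calls ran from 52 to 3219 in total RNA (640), 193 to 2639 in heavy polysome RNA (1312) and 0 to 147 in Eif4g3 siRNA heavy over total RNA (27). The split in total RNA, 392 lower and 248 higher, became 733 and 796 with processed signals and 171 and 43 with median centring, and median centring moved the lower share of heavy polysome calls from 45.4% to 55.4%. The causes were not tested.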
